A study of Danio rerio with 24 samples.

Results

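Chaperones and co-chaperones were examined across the RPE libraries of ablated and intact larvae. These genes were the rows of both deposited tables whose name begins as a heat shock protein (*hsp*), a J protein (*dnaja*, *dnajb* or *dnajc*) or a numbered chaperonin subunit (*cct*), without the proteoglycan gene *hspg2*. The rule used names and no measured value, and found 94 of 25281 genes. By the known place of the protein, 15 were cytosolic Hsp70 and Hsp110 genes, 3 cytosolic Hsp90 genes, 11 cytosolic J protein genes, 8 chaperonin rows, 8 small heat shock protein genes, 17 genes of the endoplasmic reticulum (ER), 12 of the mitochondria, 17 J protein genes with other tasks and 3 with other *hsp* names.

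Chaperones bind unfolded protein and help it to fold, move or be degraded. Hsp70 proteins work in cycles of ATP use that J proteins start and Hsp110 proteins help to reset, Hsp90 proteins act late on receptors and kinases, and the ring-shaped chaperonins fold actin, tubulin and others inside a chamber. Each compartment has its own set, and unfolded protein in the cytosol, the ER or the mitochondria is known to raise the genes of that compartment. The RPE is a pigmented monolayer that renews visual pigment and takes up shed photoreceptor tips.

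In *rpe65a*:nfsB-eGFP larvae, the RPE promoter of *rpe65a* drives a nitroreductase fused to eGFP, which turns metronidazole (MTZ) into a toxin. The 8 groups of 3 libraries each, 24 in all, were intact (MTZ-, 0 mM) or ablated (MTZ+, 10 mM from 5 dpf for 24 h) larvae given the vehicle DMSO or 2 µM rapamycin, an inhibitor of the kinase complex mTORC1, and were collected at 2 days post-injury (2dpi, 7 dpf) or 4dpi (9 dpf). All carried the transgene, and all were kept in the pigment inhibitor PTU until 5 dpf. Each library was made from a small number of sorted eGFP+ cells of pooled larval eyes. In such bulk libraries fewer cells of a type and less RNA per cell cannot be told apart.

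Total counts per library ran from 20607731 to 37189527 (median 32437827.5). Levels are given as CPM (library-size scaled counts with TMM factors), and levels of different genes are compared only as the deposited TPM, which account for gene length. The RPE markers stood at a summed 58334 to 118707 CPM in intact libraries and 16046 to 80085 CPM in ablated ones. Under DMSO 9 of 9 fell with ablation at 2dpi and 4 of 9 at 4dpi. Among ablated libraries at 2dpi they summed to 16046 to 31600 CPM with DMSO and 38559 to 67927 CPM with rapamycin. At 4dpi the ranges were 25135 to 46133 CPM and 18656 to 80085 CPM. With rapamycin in ablated RPE 0 of 9 were called at either time (median log2 fold change 1.19 and 0.48). Under DMSO at 2dpi, 5 of 6 Müller glia markers and 1 each of the leukocyte, epidermis and muscle lists rose, 1 photoreceptor and 1 muscle marker fell, and no inner retinal neuron or lens marker was called. Under DMSO at 4dpi, 5 of 8 inner retinal neuron markers, 5 of 6 Müller glia markers, 2 of 8 photoreceptor markers and 1 each of the leukocyte, epidermis and muscle lists rose with ablation, and no lens marker did. Of all tested genes, 13.3% rose and 11.8% fell at 2dpi, and 17.7% rose and 12.2% fell at 4dpi. At 4dpi inner retinal neuron markers summed to 14.3 to 36 CPM in intact DMSO and 10.7 to 55.8 CPM in ablated rapamycin libraries, against 108 to 333 CPM in intact rapamycin and 124 to 313 CPM in ablated DMSO libraries. Müller glia markers summed to 5432 to 10370 CPM in intact and 5058 to 7050 CPM in ablated DMSO libraries at 2dpi. At 4dpi the sums were 9883 to 12532 CPM and 8214 to 11445 CPM. The Müller glia list holds genes that RPE is also known to express. The part of these cells in the results was not tested.

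A gene is called changed, and is said to have risen or fallen, at a Benjamini-Hochberg adjusted p under 0.05 in edgeR's quasi-likelihood test, fitted on all genes of the 12 libraries of a time point. Of the 94 chaperone genes, 83 had enough counts to be tested at 2dpi and 82 at 4dpi. Those left out at both times were *dnajb13*, *dnajc22*, *dnajc5b*, *hspa12a.1*, *hspa12a.2*, *hspa12b*, *hspb2*, *hspb3*, *hspb7*, *hspb11* and *hspb15*, joined at 4dpi by *hspb9*. For *hspb3* no read was counted in any library.

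By TPM, the chaperone genes together made up 0.4% ± 0.0429 (SD, n = 3) of the transcripts in intact DMSO RPE at 2dpi and 0.409% ± 0.021 at 4dpi. In ablated DMSO RPE the share was 0.946% ± 0.338 at 2dpi (0.704%, 0.802% and 1.33% by library) and 0.573% ± 0.0917 at 4dpi. In ablated rapamycin RPE it was 0.859% ± 0.231 and 1.13% ± 0.476, and in intact rapamycin RPE 0.524% ± 0.0241 and 0.574% ± 0.0251. The most abundant was *hspa8*, the constitutive cytosolic Hsp70, with a mean of 1048 TPM over the 24 libraries, followed by *hsp90ab1*, the constitutive Hsp90, with 707 TPM. Next came the chaperonin rows *cct5* (455 TPM), *cct2_2* (431 TPM) and *cct4* (420 TPM). The most abundant gene of the ER was *hspa5* with 130 TPM, and that of the mitochondria *hspe1* with 146 TPM.

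The first comparison asked how chaperone genes differed between ablated and intact RPE under DMSO. At 2dpi, 37 of the 83 tested rose and 3 fell, where 13.3% of all 17536 tested genes rose and 11.8% fell. Their median log2 fold change was 0.78, against 0.04 over all tested genes. At 4dpi, 26 of 82 rose and 7 fell, where 17.7% of 17515 tested genes rose and 12.2% fell, with a median of 0.76 against 0.27. Of the genes that rose, 22 rose at both times, which is 59.5% of those of 2dpi and 84.6% of those of 4dpi. Over all genes, 1387 rose at both times, 59.4% of those of 2dpi and 44.8% of those of 4dpi. Stricter filters follow the study's methods, asking beside the adjusted p for a log2 fold change beyond 1 in size and a mean of 1 or more in the higher group, taken here in TPM since the methods give no unit. With them, 32 chaperone genes changed at 2dpi and 28 at 4dpi, where 21.2% and 23.5% of all tested genes did.

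**Figure D1:**
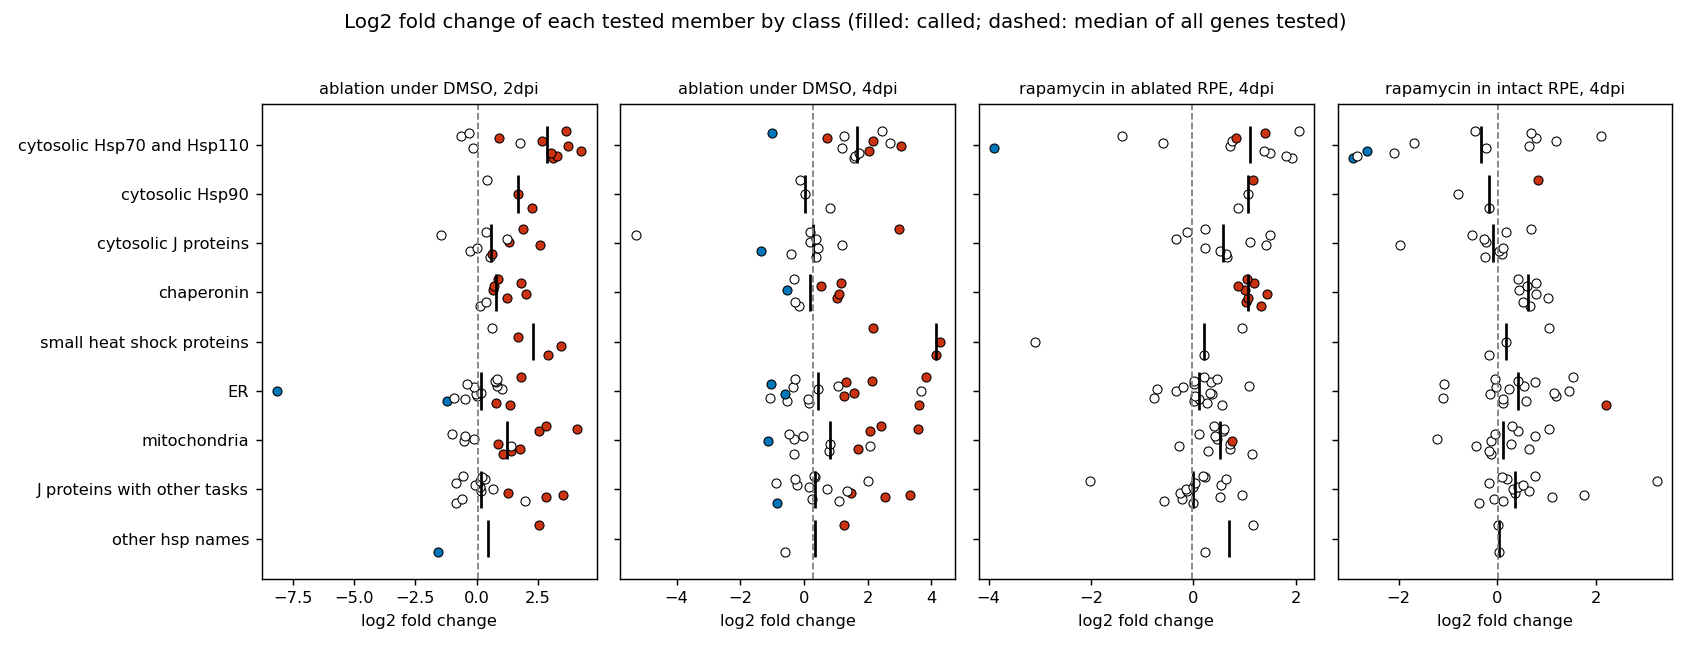
Log2 fold change (horizontal axis) of each tested chaperone gene, by class (vertical axis), for ablation under DMSO at 2dpi and 4dpi and for rapamycin in ablated and in intact RPE at 4dpi. Red points rose and blue points fell at an adjusted p under 0.05, open points were not called, black lines are class medians and the dashed line is the median of all genes tested. All 8 chaperonin rows were called higher with rapamycin in ablated RPE at 4dpi, where 1.63% of all tested genes rose. None of the 8 was called on the compared groups alone. With ablation at 2dpi, 7 of 12 mitochondrial genes rose, where 13.3% of all tested genes did.

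Of 12 mitochondrial genes, 7 rose and none fell at 2dpi (median log2 fold change 1.22), and 4 rose and 1 fell at 4dpi (median 0.80). These are 58.3% and 41.7% of the class, where 25.2% and 29.8% of all tested genes were called. At 2dpi *dnajc4* and *dnajc19* had log2 fold changes of -0.99 and -0.50 and were not called (adjusted p = 0.0511 and 0.311). *hspd1* encodes Hsp60, the chaperonin of the mitochondrial matrix, and *hspe1* encodes Hsp10, the lid of its chamber. They lie on chromosome 9 of GRCz11 on opposite strands with 233 bases between them, *hspd1* at 32286605 to 32300783 and *hspe1* at 32301017 to 32305007.

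*hspd1* measured 5.99, 12.6 and 7.47 CPM in intact DMSO libraries and 126, 138 and 185 CPM in ablated DMSO libraries at 2dpi. All ablated libraries lay above all intact ones, and the fold was 17.4 (log2 fold change 4.12, SE 0.332, adjusted p = 1.45e-05, edgeR). At 4dpi the values were 4.55, 1.75 and 11.5 CPM without and 45.9, 88.4 and 66.7 CPM with ablation (log2 fold change 3.57, SE 0.676, adjusted p = 0.00317). Without intact DMSO replicate 3 the fold at 4dpi was 22.5.

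*hspe1* stood at 45.3, 53.9 and 38.7 CPM in intact and 261, 326 and 379 CPM in ablated DMSO RPE at 2dpi, a fold of 7.11 (log2 fold change 2.83, SE 0.364, adjusted p = 0.000155). It rose as well at 4dpi, from 28.7, 26.6 and 39.3 CPM to 120, 196 and 162 CPM (log2 fold change 2.41, SE 0.379, adjusted p = 0.0013). *hspa9*, the mitochondrial Hsp70 that pulls imported protein into the matrix, rose from 68.8, 55.5 and 57 CPM to 301, 311 and 447 CPM at 2dpi (log2 fold change 2.57, SE 0.232, adjusted p = 2.06e-05) and from 53.5, 51.5 and 67.2 CPM to 123, 279 and 291 CPM at 4dpi (log2 fold change 2.08, SE 0.391, adjusted p = 0.00307). For these genes the groups did not overlap at either time, and each kept its call at both times whichever single library was left out.

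Among mitochondrial J proteins, *dnajc11a*, whose human counterpart is tied to the folding of the inner membrane, rose 3.4-fold at 2dpi and 3.22-fold at 4dpi (adjusted p = 0.000646 and 0.00461). The matrix J protein gene *dnaja3b* rose 2.62-fold at 2dpi, *dnaja3a* 2.08-fold, and *dnajc15*, of the import motor, 1.86-fold (adjusted p = 0.00323, 0.0249 and 0.017). The calls of *dnaja3a* and *dnajc15* were lost in 4 and 3 of 6 fits with 1 library left out. *dnajc19*, another J protein of the import motor, moved the other way at 4dpi. It measured 36.9, 40.3 and 39.3 CPM in intact and 17.3, 15 and 18.4 CPM in ablated RPE, and fell 2.18-fold (log2 fold change -1.12, SE 0.168, adjusted p = 0.00103).

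Other genes of the mitochondrial protein machinery came from a list of 13, of which 11 were tested. They had 6 rising and none falling at 2dpi and 4 rising and none falling at 4dpi. Of all tested genes, 13.3% rose and 11.8% fell at 2dpi, and 17.7% rose and 12.2% fell at 4dpi. *trap1*, the mitochondrial Hsp90, rose 2.76-fold at 2dpi and 2.07-fold at 4dpi, and *grpel1*, the nucleotide exchange factor of the mitochondrial Hsp70, rose 6.04-fold and 4.63-fold. The protease subunit gene *clpp* rose 2.15-fold and 2.12-fold.

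**Figure D2:**
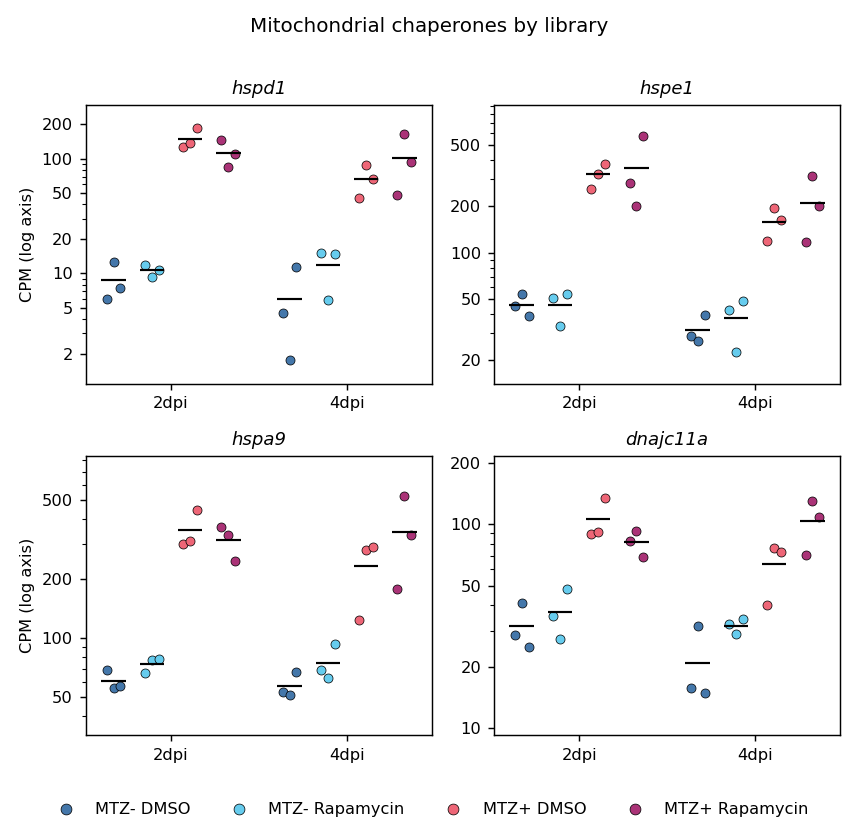
CPM on a log axis of *hspd1*, *hspe1*, *hspa9* and *dnajc11a* in each of the 24 libraries, by time point and group. Points are libraries and lines are means of 3. The ablated DMSO libraries of *hspd1* lie at 126 to 185 CPM at 2dpi, above the intact ones at 5.99 to 12.6 CPM.

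*hspa14* encodes an atypical Hsp70 that in mammals sits on the ribosome together with the J protein encoded by *dnajc2*. *hspa14* measured 17.8, 17.8 and 10 CPM in intact and 174, 234 and 198 CPM in ablated DMSO RPE at 2dpi, a fold of 13.5 (log2 fold change 3.75, SE 0.293, adjusted p = 1.45e-05), and rose 8.33-fold at 4dpi (adjusted p = 0.00125). *dnajc2*, which overlaps *pmpcb*, went from 5.69, 6.53 and 1.81 CPM to 30.1, 29 and 40.2 CPM at 2dpi, and rose 7.14-fold there and 5.84-fold at 4dpi (adjusted p = 0.000483 and 0.000794). For both genes all ablated libraries exceeded all intact ones.

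*dnajc21*, whose yeast counterpart takes part in maturation of the large ribosomal subunit, measured 1.98, 5.78 and 5.1 CPM in intact and 44.1, 46.7 and 55.8 CPM in ablated RPE at 2dpi, and rose 11.6-fold (log2 fold change 3.53, SE 0.365, adjusted p = 3.78e-05). At 4dpi it rose 10-fold (adjusted p = 0.00133), and 18.6-fold without intact DMSO replicate 2. *dnajc24*, a J protein of diphthamide synthesis on elongation factor 2, rose 2.43-fold and 2.77-fold. *dnajc2*, *dnajc21* and *dnajc24* were the called members of the J proteins with other tasks at 2dpi, 20% of 15 tested (median log2 fold change 0.20), where 25.2% of all tested genes were called. Of the same class, *dnajc12*, known to bind hydroxylases of aromatic amino acids, fell 1.79-fold at 4dpi (adjusted p = 0.0306), a call that 4 of 6 fits without 1 library did not give.

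Of the 12 tested cytosolic Hsp70 and Hsp110 genes, 8 rose and none fell at 2dpi (median log2 fold change 2.87), and 4 rose and 1 fell at 4dpi (median 1.67). These are 66.7% and 41.7% of those tested, where 25.2% and 29.8% of all tested genes were called. The heat-inducible Hsp70 genes *hsp70.1*, *hsp70.2* and *hsp70.3* lie side by side on chromosome 3 (26112780 to 26127091) and overlap *atp2a1*, and *hsp70l* lies on chromosome 8. Their sequences were not compared here, and how reads with several matches were counted is not stated in the sources used here. The split of counts among them is therefore uncertain.

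*hsp70l* measured 30.9, 7.84 and 35.4 CPM in intact and 136, 125 and 1147 CPM in ablated DMSO RPE at 2dpi, and *hsp70.1* 36.1, 15 and 41.1 CPM against 114, 79.7 and 604 CPM. The groups did not overlap, but ablated DMSO replicate 3 stood far above its group. The fold was 19.4 for *hsp70l* (log2 fold change 4.28, SE 0.972, adjusted p = 0.00815) and 8.84 for *hsp70.1* (log2 fold change 3.14, SE 0.756, adjusted p = 0.0104). Without replicate 3 the folds were 5.19 and 3.1, and both were still called (adjusted p = 0.0161 and 0.0316).

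Other heat-inducible genes lost their call at 2dpi without that library. *hsp70.2* and *hsp70.3* rose 9.75-fold and 8.33-fold, and *dnajb1b*, the J protein that works with inducible Hsp70, rose 6-fold from 74.2, 23.8 and 56.1 CPM to 81, 83 and 741 CPM. Without replicate 3 the folds of *hsp70.2*, *hsp70.3* and *dnajb1b* were 2.27, 2.03 and 1.57 (adjusted p = 0.221, 0.287 and 0.423). Each was called in 2 of 6 fits without 1 library. With a replicate block, their adjusted p was 0.0716, 0.0664 and 0.0669.

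The inducible Hsp90 genes lie next to each other on chromosome 20 and share that feature. *hsp90aa1.2* measured 207, 262 and 258 CPM in intact and 356, 428 and 1532 CPM in ablated DMSO RPE at 2dpi, a 3.24-fold rise (adjusted p = 0.0169) that was 1.58-fold without replicate 3 (adjusted p = 0.113). *hsp90aa1.1*, at 0.59 to 1.67 CPM in intact and 1.73 to 10.6 CPM in ablated libraries, rose 4.74-fold (adjusted p = 0.0389), was 2.15-fold higher without replicate 3 (adjusted p = 0.308) and was not called with the block (adjusted p = 0.0538). At 4dpi no Hsp90 gene of the cytosol was called. Of the inducible Hsp70 genes *hsp70l* rose 4.14-fold, from 32.2, 23.3 and 43.7 CPM to 164, 161 and 63.9 CPM (adjusted p = 0.0194), a call given by 2 of 6 fits without 1 library. *hsp70.1*, *hsp70.2* and *hsp70.3* were not called. On the compared groups alone edgeR called them and *dnajb1b*, and DESeq2 called *hsp70.1* and *hsp70.2*. *hsp70.1* measured 22.9, 33.4 and 33.4 CPM in intact and 67.9, 131 and 51.1 CPM in ablated libraries. In edgeR 12 of 12 tested Hsp70 and Hsp110 genes had an unadjusted p under 0.05, as did 7400 of all 17515.

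The constitutive *hspa8* measured 2304, 3079 and 3505 CPM in intact and 2097, 2124 and 2828 CPM in ablated DMSO RPE at 2dpi, groups that overlap (log2 fold change -0.31, SE 0.252, adjusted p = 0.418). At 4dpi it measured 3765, 4918 and 4710 CPM against 2034, 1942 and 2372 CPM and fell 2-fold (SE 0.221 on the log2 scale, adjusted p = 0.00662). The constitutive *hsp90ab1* was not called, with 1122, 1114 and 1290 CPM in intact and 1351, 1447 and 1834 CPM in ablated RPE at 2dpi (log2 fold change 0.42, adjusted p = 0.178) and a log2 fold change of -0.13 at 4dpi (adjusted p = 0.557). *hspa8* overlaps *jhy*, and the split of reads with its paralog *hspa8b* is uncertain. *hspa8b* measured 1.36, 10.2 and 7.26 CPM in intact and 24.6, 60.2 and 149 CPM in ablated RPE at 2dpi and rose 12.5-fold (adjusted p = 0.0056), or 6.57-fold without ablated DMSO replicate 3. At 4dpi its adjusted p was 0.0598, and 0.0344 with the replicate block.

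Hsp110 proteins are nucleotide exchange factors for Hsp70. *hspa4a* rose 6.43-fold at 2dpi, from 18.2, 20.8 and 19.6 CPM to 119, 89.7 and 162 CPM (adjusted p = 0.000139), and 4.46-fold at 4dpi (adjusted p = 0.00713), or 7.02-fold without intact DMSO replicate 3. *hspa4b* rose 1.88-fold and 1.65-fold (adjusted p = 0.00593 and 0.0206), at 4dpi in 2 of 6 fits without 1 library. *hspa4l*, of the same family, was not called and measured 15.4, 19.9 and 14.8 CPM in intact and 12.5, 11 and 8.54 CPM in ablated RPE at 2dpi (log2 fold change -0.62, adjusted p = 0.201), with a log2 fold change of 1.27 at 4dpi (adjusted p = 0.0821). *hspbp1*, which also drives nucleotide exchange on Hsp70, rose 5.85-fold at 2dpi and 2.4-fold at 4dpi, while *hspbap1* fell 2.99-fold at 2dpi (adjusted p = 0.000265, 0.0269 and 0.0141), the rise at 4dpi in 2 of 6 fits without 1 library.

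**Figure D3:**
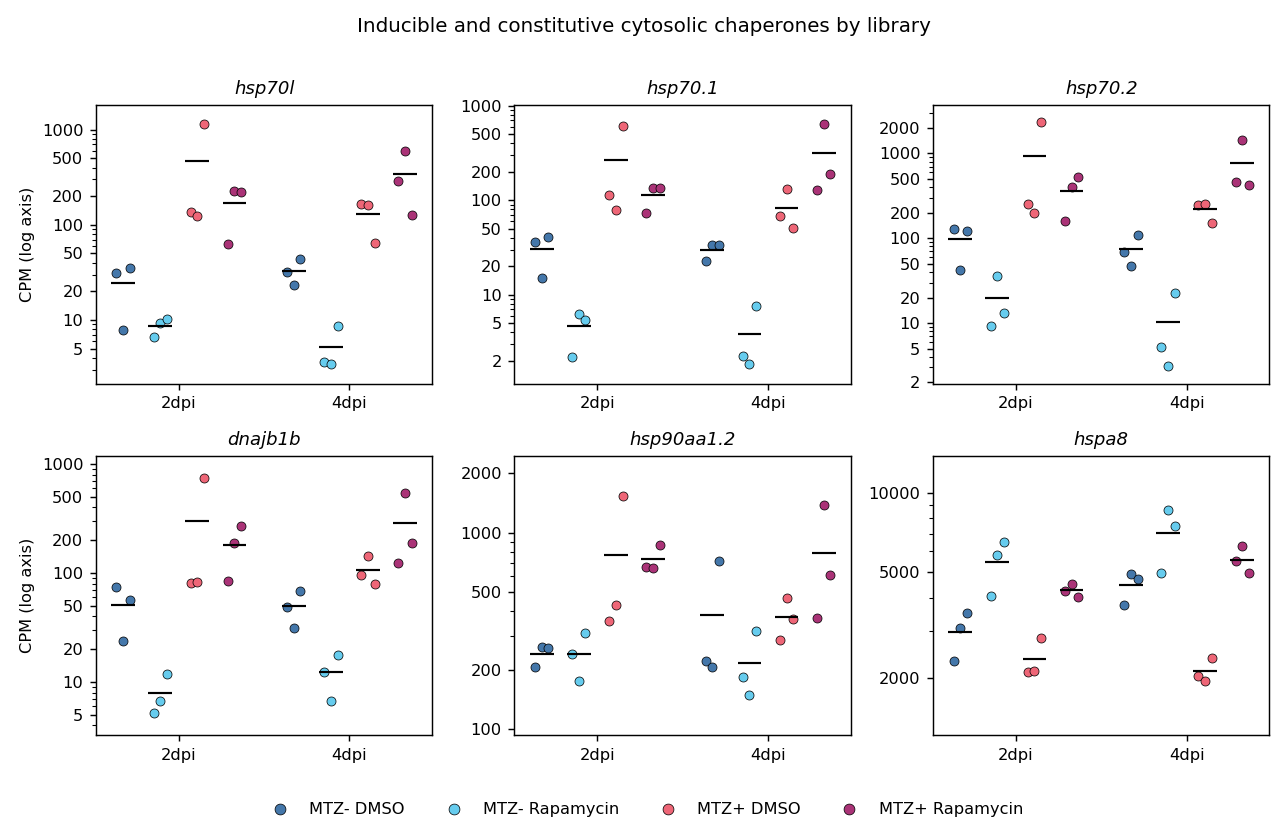
CPM on a log axis of the inducible genes *hsp70l*, *hsp70.1*, *hsp70.2*, *dnajb1b* and *hsp90aa1.2* and of the constitutive *hspa8* in each of the 24 libraries, by time point and group. Points are libraries and lines are means of 3. Ablated DMSO replicate 3 at 2dpi is the highest library for *hsp70l* at 1147 CPM, and the intact rapamycin libraries of *hsp70.1* lie at 1.83 to 7.56 CPM.

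Of 10 tested cytosolic J proteins, 4 rose at 2dpi and none fell, and 1 rose and 1 fell at 4dpi. These are 40% and 20% of those tested, where 25.2% and 29.8% of all tested genes were called. *dnajb6b*, of a family that keeps aggregating proteins in solution, rose 3.71-fold at 2dpi and 7.81-fold at 4dpi, from 2.65, 2.89 and 3.53 CPM to 10.1, 27.8 and 29.5 CPM (adjusted p = 0.00402 and 0.00267). *dnajb2* rose 2.51-fold at 2dpi (adjusted p = 0.00568). *dnaja2b*, a partner of constitutive Hsp70, measured 235, 227 and 173 CPM in intact and 87.5, 67.6 and 80.4 CPM in ablated DMSO RPE at 4dpi and fell 2.55-fold (log2 fold change -1.35, SE 0.185, adjusted p = 0.000681).

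The small heat shock proteins hold unfolding protein in a state from which it can be refolded. Of the 8, 4 could be tested at 2dpi and 3 at 4dpi, and *hspb1*, *hspb6* and *hspb8* rose at both times. The share of all tested genes that rose was 13.3% at 2dpi and 17.7% at 4dpi. *hspb1*, which encodes Hsp27, measured 19.6, 13.7 and 4.49 CPM in intact and 104, 56.6 and 120 CPM in ablated DMSO RPE at 2dpi, a fold of 7.54 (log2 fold change 2.91, SE 0.53, adjusted p = 0.0016). At 4dpi it went from 3.87, 3.11 and 3.93 CPM to 58.4, 28.4 and 98.3 CPM, a fold of 17.8 (log2 fold change 4.16, SE 0.469, adjusted p = 0.000312). Every ablated DMSO library lay above every intact one at both times.

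*hspb8* measured 29, 17.2 and 17.4 CPM without and 68.6, 68.9 and 65.6 CPM with ablation at 2dpi and rose 3.25-fold (adjusted p = 0.000694), and at 4dpi 4.46-fold (adjusted p = 0.00599). Its partner in selective autophagy, *bag3*, rose 12.6-fold at 2dpi and 3.59-fold at 4dpi (adjusted p = 2.98e-05 and 0.00146). *hspb6* was far lower, at 0.531 to 1.34 CPM in intact and 8.25 to 10.5 CPM in ablated DMSO libraries at 2dpi. It rose 10.8-fold at 2dpi (adjusted p = 0.0342), a call that no fit without 1 library gave and that the replicate block did not give (adjusted p = 0.0501). At 4dpi it rose 19.3-fold (adjusted p = 0.0276), with 3, 1 and 52 counts in intact and 200, 716 and 273 in ablated DMSO libraries. Without intact DMSO replicate 3 the intact counts did not exceed a floor of 3 counts per library. The 160-fold difference of that fit is therefore no measured size. The call at 4dpi was given by 2 of 6 fits without 1 library. The lens-type small heat shock protein genes *cryaa*, *cryaba* and *cryabb* had too few counts to be tested.

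The cytosolic chaperonin TRiC is a ring of different subunits, here 8 rows, of which *cct2_1* and *cct2_2* are a pair of rows with the same gene name on chromosome 4 and their split of reads is uncertain. At 2dpi, 6 of 8 rose and none fell with ablation, where 13.3% of all tested genes rose and 11.8% fell. *cct4* measured 138, 194 and 115 CPM in intact and 510, 626 and 624 CPM in ablated DMSO RPE, a fold of 3.99 (log2 fold change 2.00, SE 0.234, adjusted p = 8.4e-05). *cct7* went from 103, 125 and 113 CPM to 342, 415 and 424 CPM, a fold of 3.52 (log2 fold change 1.82, SE 0.194, adjusted p = 4.48e-05).

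The other subunits rose less or were not called. *cct3* rose 2.34-fold, *cct8* 1.84-fold, *cct6a* 1.62-fold and *cct5* 1.57-fold (adjusted p = 0.000766, 0.00346, 0.0146 and 0.0354), the last not called in any fit without 1 library and *cct6a* in 3 of 6. *cct2_1* and *cct2_2* had log2 fold changes of 0.14 and 0.38 (adjusted p = 0.743 and 0.151). The remaining subunit gene, *tcp1*, which the name rule does not cover, rose 3.98-fold (adjusted p = 8.17e-05). At 4dpi, *cct3*, *cct4*, *cct6a* and *cct7* rose between 1.44-fold and 2.23-fold and *cct5* fell 1.46-fold, from 531, 517 and 420 CPM to 294, 345 and 315 CPM (adjusted p = 0.0348). The calls of *cct5* and *cct6a* at 4dpi were each given by 1 of 6 fits without 1 library.

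Other cytosolic partners were listed beside these, 32 genes that were all tested. With ablation, 14 rose and 1 fell at 2dpi (median log2 fold change 0.90), and 14 rose and 3 fell at 4dpi (median 0.62). Over all tested genes, 13.3% rose and 11.8% fell at 2dpi, and 17.7% rose and 12.2% fell at 4dpi. *hsph1*, an inducible Hsp110, rose 24-fold at 2dpi and 5.25-fold at 4dpi (adjusted p = 0.00455 and 0.0118), and *hsf1*, the heat shock transcription factor, rose 3.11-fold at 2dpi (adjusted p = 0.0245) and had a log2 fold change of 0.16 at 4dpi (adjusted p = 0.835).

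Of 17 ER genes, 3 rose and 2 fell at 2dpi (median log2 fold change 0.18), and 6 rose and 2 fell at 4dpi (median 0.44). These are 29.4% and 47.1% of the class, where 25.2% and 29.8% of all tested genes were called, and the difference between the times was not tested for the class. *hspa5* encodes BiP, the Hsp70 of the ER lumen. It measured 112, 120 and 44.7 CPM in intact and 307, 261 and 394 CPM in ablated DMSO RPE at 2dpi, a fold of 3.53 (log2 fold change 1.82, SE 0.352, adjusted p = 0.00227). At 4dpi the values were 15.8, 11.9 and 34 CPM against 178, 362 and 294 CPM, a fold of 14.2 (log2 fold change 3.83, SE 0.454, adjusted p = 0.000365).

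For *hspa5* the ablated libraries stood at 321 ± 67.3 CPM and 278 ± 93.2 CPM (SD, n = 3) at 2dpi and 4dpi, and the intact ones at 92.1 ± 41.2 and 20.6 ± 11.8 CPM. *dnajb11*, the J protein that brings substrates to BiP, measured 42.8, 45.1 and 22.6 CPM in intact and 97.5, 90.7 and 92.5 CPM in ablated DMSO RPE at 2dpi, and 5.01, 5.01 and 5.44 CPM against 50.8, 73.9 and 54.1 CPM at 4dpi. It rose 2.57-fold and 12.2-fold (log2 fold change 1.36, SE 0.29, adjusted p = 0.0041, and 3.61, SE 0.235, adjusted p = 2.66e-05). Reads of *dnajb11* may include those of *rabl3*, which it overlaps.

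*hsp90b1*, the Hsp90 of the ER (Grp94), measured 58.2, 99.2 and 41.9 CPM against 98.8, 120 and 115 CPM at 2dpi, groups that overlap (log2 fold change 0.76, SE 0.325, adjusted p = 0.11, and 0.0396 with the replicate block). At 4dpi it went from 26.5, 29.2 and 17.2 CPM to 77.7, 127 and 99.8 CPM and rose 4.4-fold (log2 fold change 2.14, SE 0.254, adjusted p = 0.000365). The disulfide reductase gene *dnajc10* rose 2.97-fold, the J protein genes *dnajb9b* 2.4-fold and *dnajc3b* 2.5-fold at 4dpi (adjusted p = 0.00417, 0.00735 and 0.0312), the last in 1 of 6 fits without 1 library, where it rose 4.07-fold without intact DMSO replicate 3.

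Some ER genes went the other way. *dnajc3a*, the paralog of *dnajc3b*, measured 80.6, 60 and 36.2 CPM in intact and 27.4, 34.8 and 18.9 CPM in ablated DMSO RPE at 4dpi and fell 2.06-fold (adjusted p = 0.0304), in 2 of 6 fits without 1 library. *dnajc1*, a J protein of the ER membrane, fell 1.53-fold at 4dpi (adjusted p = 0.0219, in 3 of 6 such fits). At 2dpi *dnajb12b* fell 2.28-fold and its paralog *dnajb12a* rose 1.72-fold (adjusted p = 0.0252 and 0.0161), in 1 and 3 of 6 such fits. *dnajc16* had 20, 57 and 42 counts in intact DMSO libraries and 0 in all 3 ablated ones at 2dpi, which against a floor of 3 counts per library is at least 10.7-fold lower (adjusted p = 0.00596).

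Among 26 listed ER partners, of which 25 were tested, 6 rose and 3 fell at 2dpi (median log2 fold change 0.25). At 4dpi 11 rose and 1 fell (median 0.98). Over all tested genes, 13.3% rose and 11.8% fell at 2dpi, and 17.7% rose and 12.2% fell at 4dpi. *hyou1*, a large Hsp70 of the ER, rose 3.27-fold and 10.5-fold, *manf*, a secreted ER stress protein, 3.81-fold and 7.24-fold, and *sdf2l1*, which binds BiP complexes, rose 24.3-fold at 4dpi. *xbp1*, a transcription factor of the unfolded protein response, rose 1.67-fold at 2dpi (adjusted p = 0.0133) and had a log2 fold change of 0.79 at 4dpi (adjusted p = 0.12). The ER folding genes *calr*, *p4hb*, *pdia4* and *pdia6* were called at 4dpi and not at 2dpi.

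**Figure D4:**
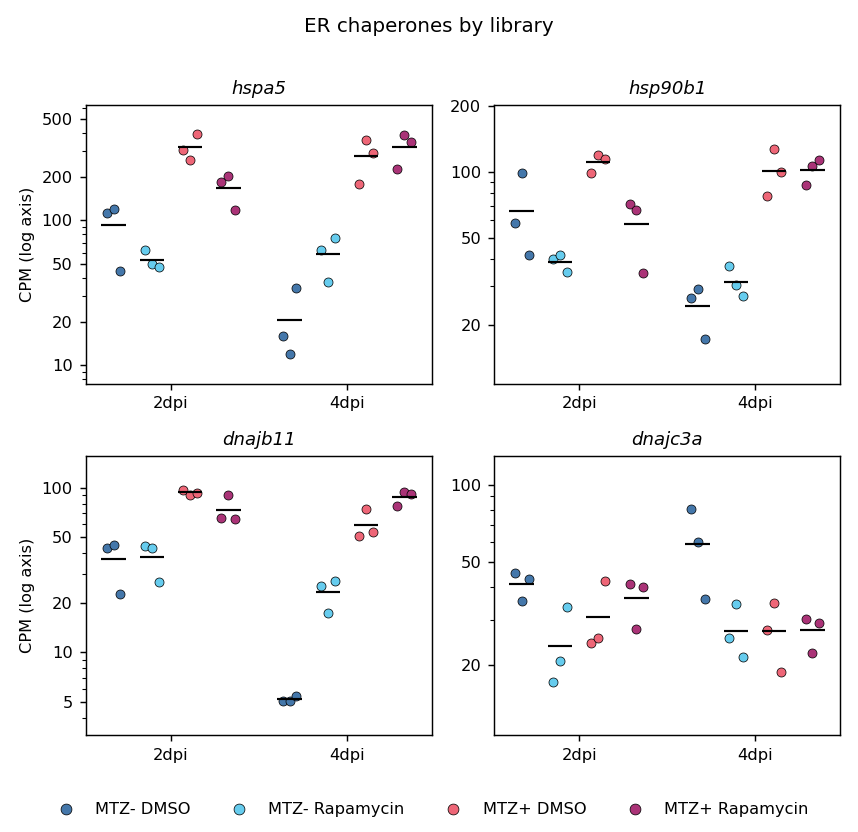
CPM on a log axis of *hspa5*, *hsp90b1*, *dnajb11* and *dnajc3a* in each of the 24 libraries, by time point and group. Points are libraries and lines are means of 3. The intact DMSO libraries of *dnajb11* stand at 5.01 to 5.44 CPM at 4dpi, and at 22.6 to 45.1 CPM at 2dpi.

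Whether the ablation effect under DMSO itself differed between 2dpi and 4dpi was tested over all 24 libraries. Of 85 tested chaperone genes, 2 had a larger and 4 a smaller log2 fold change at 4dpi, 6 in all, where 2.72% of 18939 tested genes changed in either direction. The effect on *dnajb11* was larger by 2.19 on the log2 scale (SE 0.36, adjusted p = 0.00463), and it was called in 12 of 12 fits without 1 library. For *hspa5* and *hsp90b1* the differences were 1.96 (SE 0.558, adjusted p = 0.0595) and 1.32 (SE 0.416, adjusted p = 0.0891).

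The 4 with a smaller effect were the chaperonin rows *cct5* (-1.25, SE 0.267) and *cct8* (-1.27, SE 0.272), both with an adjusted p of 0.0172, and the J protein genes *dnaja2a* (-1.10) and *dnaja2b* (-1.16), with an adjusted p of 0.0399 and 0.0446. *cct5* and *cct8* were called in 11 of 12 fits without 1 library, *dnaja2a* in 3 and *dnaja2b* in 2. The count was 3 without ablated DMSO replicate 3 of 2dpi or without intact DMSO replicate 1 of 4dpi. None of the mitochondrial genes was called here. For *hspd1* the difference was -0.60 (SE 0.717, adjusted p = 0.712), a test that leaves a wide range of sizes. All of these comparisons share the intact DMSO libraries of their time point.

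The second question was how rapamycin altered chaperone genes in ablated RPE. At 2dpi, 1 of 83 was called higher and none lower, where 0.371% of all tested genes rose, 0.177% fell and 0.53% passed the stricter filters. At 4dpi, 12 of 82 rose and 1 fell, where 1.63% of all tested genes rose, 1.88% fell and 2.64% passed the stricter filters, which 10 chaperone genes did. The median log2 fold change of the 82 was 0.46 at 4dpi, against -0.02 for all tested genes. The count depended on single libraries. It was 16 without ablated rapamycin replicate 1, 8 without ablated rapamycin replicate 3, 6 without ablated rapamycin replicate 2 or without ablated DMSO replicate 1 or 2, and 4 without ablated DMSO replicate 3. It was 0 without both ablated libraries numbered 2, whose raw file names carry letters crossed against the other replicates. The share of all tested genes called moved the same way. It was 3.51% in the main fit and 4.63% without ablated rapamycin replicate 1. Without ablated DMSO replicate 2 or 3 it was 1.01% and 1.1%, and without both ablated libraries numbered 2 it was 0.314%.

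All 8 chaperonin rows were among the 12 genes that rose at 4dpi. *cct4* measured 265, 412 and 372 CPM in ablated DMSO and 586, 1335 and 918 CPM in ablated rapamycin RPE, a fold of 2.71 (log2 fold change 1.44, SE 0.264, adjusted p = 0.0162). *cct5* went from 294, 345 and 315 CPM to 537, 754 and 619 CPM, a fold of 2.01 (log2 fold change 1.01, SE 0.175, adjusted p = 0.0137). *cct2_2*, which had not been called with ablation, went from 168, 155 and 183 CPM to 291, 400 and 333 CPM, a fold of 2.04 (log2 fold change 1.03, SE 0.173, adjusted p = 0.0122).

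*cct2_1* rose 2.49-fold, *cct7* 2.28-fold, *cct3* 2.11-fold, *cct8* 2.06-fold and *cct6a* 1.83-fold, with adjusted p between 0.0155 and 0.0422. The libraries of ablated rapamycin RPE lay above those of ablated DMSO RPE for each of the 8 rows. The calls were given by 5 of 6 fits without 1 library for *cct5* and *cct2_2*, 4 for *cct4*, 3 for *cct8* and *cct2_1*, and 1 for *cct3*, *cct6a* and *cct7*. Fitted on the compared groups alone none of the 8 was called (adjusted p from 0.0504 for *cct2_1* to 0.147 for *cct3*), and with RLE scaling *cct3* was not (adjusted p = 0.0509). Without both ablated libraries numbered 2 their adjusted p ran from 0.0784 for *cct4* to 0.164 for *cct3*.

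At 2dpi in ablated RPE *cct2_2* alone was called, 1.87-fold higher, from 189, 177 and 217 CPM to 383, 312 and 383 CPM (adjusted p = 0.0497), in none of 6 fits without 1 library. The others had log2 fold changes of 0.19 to 0.89. The 3 rapamycin libraries lay above the 3 DMSO libraries for 7 of 8 rows in ablated RPE at 2dpi, where 9.05% of all tested genes did, for 8 of 8 in intact RPE at 2dpi (7.8%), for 8 of 8 in intact RPE at 4dpi (13.5%) and for 8 of 8 in ablated RPE at 4dpi (10.9%). In intact RPE the log2 fold changes of the 8 rows ran from 0.47 to 0.97 at 2dpi and from 0.41 to 1.03 at 4dpi. For *cct3* in intact RPE at 4dpi the adjusted p was 0.0557, and 0.0391 with the replicate block.

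**Figure D5:**
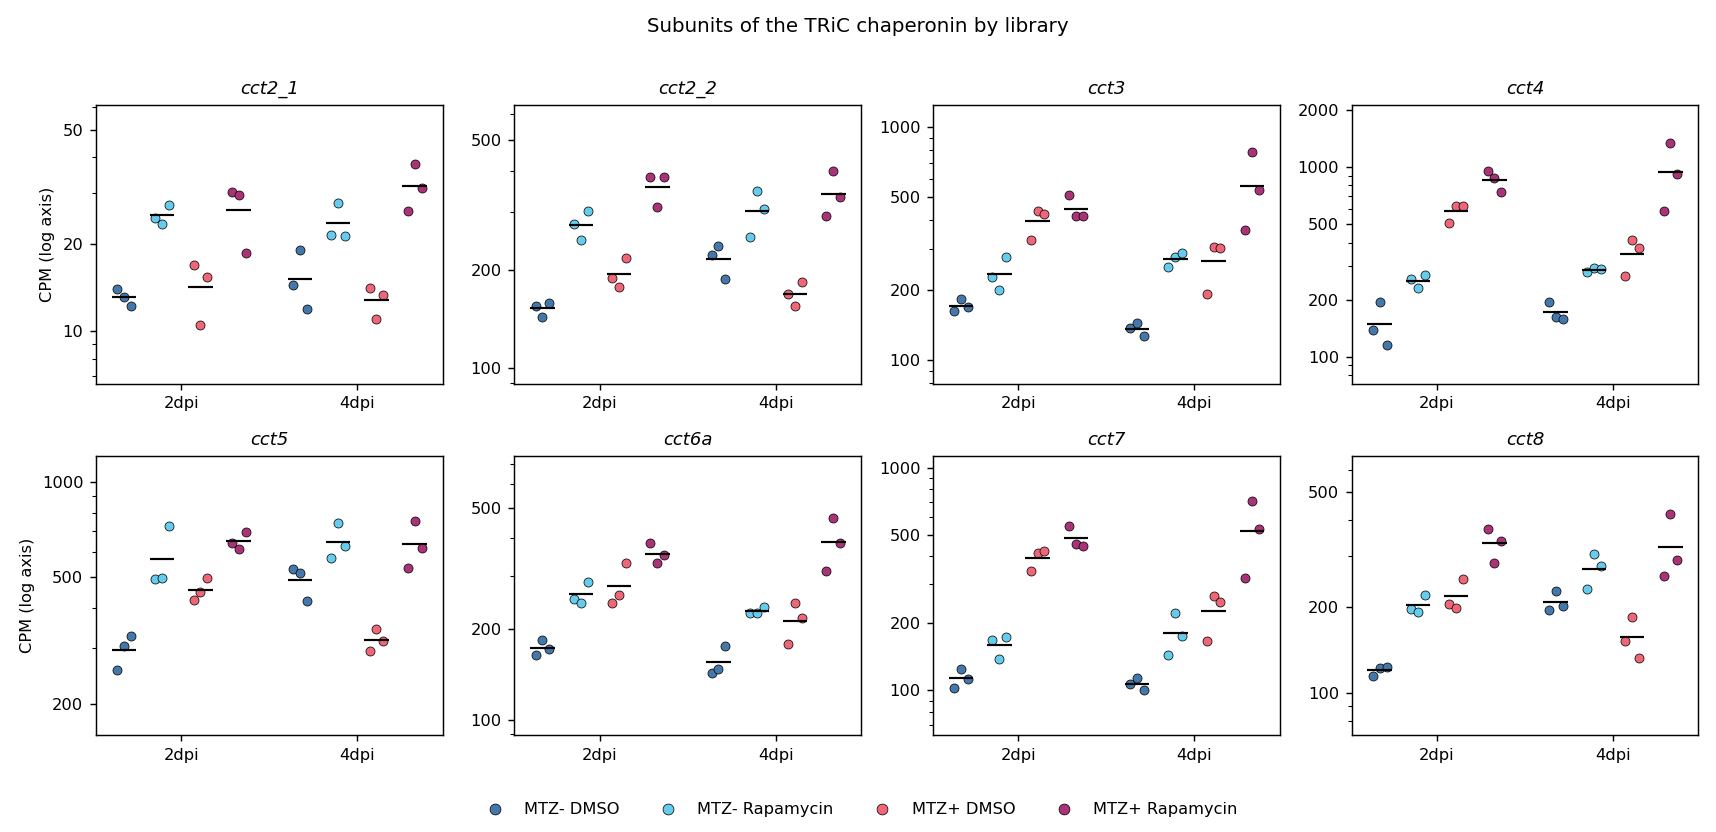
CPM on a log axis of the 8 chaperonin rows in each of the 24 libraries, by time point and group. Points are libraries and lines are means of 3. In ablated RPE at 4dpi the rapamycin libraries of *cct4* lie at 586 to 1335 CPM and the DMSO libraries at 265 to 412 CPM.

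The constitutive *hsp90ab1* measured 1552, 1457 and 1352 CPM in ablated DMSO and 3126, 3557 and 3014 CPM in ablated rapamycin RPE at 4dpi, a fold of 2.24 (log2 fold change 1.16, SE 0.161, adjusted p = 0.00663), and was called in 6 of 6 fits without 1 library. *hspa8* went from 2034, 1942 and 2372 CPM to 5504, 6266 and 4978 CPM, a fold of 2.66 (log2 fold change 1.41, SE 0.223, adjusted p = 0.00955), also in 6 of 6. The groups did not overlap for either gene, but without both ablated libraries numbered 2 the adjusted p was 0.0548 for *hsp90ab1* and 0.0863 for *hspa8*.

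In intact RPE *hsp90ab1* also rose, at 2dpi from 1122, 1114 and 1290 CPM to 2627, 2820 and 3535 CPM (2.57-fold, adjusted p = 0.043) and at 4dpi from 1799, 1694 and 1559 CPM to 2741, 3110 and 2890 CPM (1.77-fold, adjusted p = 0.0212). Neither call was given by a fit without 1 library. At 2dpi in ablated RPE its log2 fold change was 0.91 (adjusted p = 0.0765, and 0.0304 with the replicate block, which raised the count there from 1 to 3 with *dnaja2b*). The block raised the share of all genes called there as well, from 0.547% to 1.35%. For *hspa8* in intact RPE the log2 fold changes were 0.90 at 2dpi and 0.68 at 4dpi (adjusted p = 0.271 and 0.135).

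Of the other genes called with rapamycin in ablated RPE at 4dpi, *hspa4b* rose 1.79-fold (adjusted p = 0.046) and *dnajc19* 1.69-fold (adjusted p = 0.0332, and 0.0504 with the replicate block), each in 1 of 6 fits without 1 library. *hspa12a*, a divergent Hsp70 relative, measured 9.68, 26.3 and 17.5 CPM in DMSO and 0.861, 0.952 and 1.76 CPM in rapamycin libraries and fell 14.8-fold (log2 fold change -3.89, SE 0.55, adjusted p = 0.00685). The groups did not overlap, and it was called in 6 of 6 such fits, but not without both ablated libraries numbered 2 (adjusted p = 0.0782). In the same comparison 4 of 6 Müller glia and 1 of 8 inner retinal neuron markers fell, where 1.88% of all tested genes did. The medians of these lists were -3.09 and -2.71 on the log2 scale. No marker of the other lists was called (list medians from -1.64 for photoreceptor to 0.48 for RPE markers). The part of these cells in the fall of *hspa12a* was not tested.

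*hspb6* fell under DESeq2 but was not called in the main edgeR fit. It measured 8.25, 8.29 and 10.5 CPM in ablated DMSO and 0.23, 1.6 and 0.307 CPM in ablated rapamycin RPE at 2dpi (log2 fold change -3.61, SE 1.09, adjusted p = 0.156, and 0.00454 by DESeq2). At 4dpi the values were 9.01, 18.7 and 10.6 CPM against 0.765, 1.62 and 2.08 CPM (log2 fold change -3.10, SE 1.21, adjusted p = 0.189, 0.046 by DESeq2 and 0.0417 by edgeR on the compared groups alone). The groups did not overlap at either time.

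Of the mitochondrial genes, *hspd1*, *hspe1* and *hspa9* were not called with rapamycin. In ablated RPE at 4dpi *hspd1* had a log2 fold change of 0.60 (SE 0.609), *hspe1* 0.41 (SE 0.359) and *hspa9* 0.59 (SE 0.377), and at 2dpi -0.39, 0.14 and -0.15. The standard errors at 4dpi leave room for rises of the size seen for the chaperonin. *hspa5* had log2 fold changes of -0.92 at 2dpi and 0.21 at 4dpi (adjusted p = 0.256 and 0.847). The ER partner genes *calr* and *pdia4* fell 2.36-fold and 3-fold with rapamycin at 2dpi, both with an adjusted p of 0.0497. On the compared groups alone neither was called, as 0 of 15681 tested genes were. Of the partner genes, *bag3* rose 2.5-fold, the prefoldin gene *pfdn4*, whose protein hands actin and tubulin to TRiC, 1.83-fold, and *clpp* 1.78-fold at 4dpi (adjusted p = 0.0332, 0.0231 and 0.0343), and *tcp1* had a log2 fold change of 0.96 (adjusted p = 0.0519).

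In intact RPE, rapamycin gave 1 call among 83 at 2dpi, *hsp90ab1*, where 0.0855% of all tested genes rose, 0% fell and 0.0855% passed the stricter filters, and 2 rising and 2 falling among 82 at 4dpi, where 2.28% rose, 0.331% fell and 2.1% passed the stricter filters. *dnajb11* measured 5.01, 5.01 and 5.44 CPM in intact DMSO and 25.3, 17.3 and 27.1 CPM in intact rapamycin RPE at 4dpi and rose 4.62-fold (log2 fold change 2.21, SE 0.223, adjusted p = 0.00169), in 6 of 6 fits without 1 library. *hspa5* went from 15.8, 11.9 and 34 CPM to 62.9, 37.6 and 75.1 CPM, groups that do not overlap (log2 fold change 1.54, SE 0.416, adjusted p = 0.0787). The partner *manf* rose 2.89-fold (adjusted p = 0.0278). In the same comparison 2 of 8 photoreceptor markers, 1 of 8 inner retinal neuron markers and 1 of 6 Müller glia markers rose (list medians 3.81, 3.52 and 2.11 on the log2 scale), and their part in the changes was not tested. The 4dpi count was 1 without intact DMSO or rapamycin replicate 1 and 2 without intact DMSO or rapamycin replicate 2. Of all tested genes 2.61% were called at 4dpi, 1.13% without intact DMSO replicate 1 and 0.995% without intact rapamycin replicate 1. Without intact DMSO or rapamycin replicate 2 these shares were 1.23% and 2.62%.

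Of the inducible Hsp70 genes, *hsp70l* and *hsp70.1* fell with rapamycin in intact RPE at 4dpi. *hsp70l* measured 32.2, 23.3 and 43.7 CPM in DMSO and 3.59, 3.41 and 8.68 CPM in rapamycin libraries at 4dpi and fell 6.24-fold (log2 fold change -2.64, SE 0.587, adjusted p = 0.0383, and 0.0727 with the replicate block). *hsp70.1* went from 22.9, 33.4 and 33.4 CPM to 2.24, 1.83 and 7.56 CPM and fell 7.61-fold (log2 fold change -2.93, SE 0.682, adjusted p = 0.0459). Each call was given by 1 of 6 fits without 1 library, that without intact rapamycin replicate 3, where *hsp70.1* had a log2 fold change of -3.82. For *hsp70.2*, *hsp70.3* and *dnajb1b* the log2 fold changes were -2.85, -2.09 and -1.98 (adjusted p = 0.0615, 0.171 and 0.0809). At 2dpi the 5 genes had log2 fold changes between -2.78 and -1.49, none of them called.

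Whether rapamycin acted differently in ablated and intact RPE was tested as an interaction. At 2dpi 0 of 83 chaperone genes were called by edgeR, where 0.0228% of all tested genes were, with 3 at an unadjusted p under 0.05 and 0 by DESeq2. At 4dpi, 7 of 82 were called, where 3.47% of all tested genes were. In ablated RPE at 4dpi, *hsp70l* measured 164, 161 and 63.9 CPM with DMSO and 291, 600 and 128 CPM with rapamycin (log2 fold change 1.39, adjusted p = 0.199), against its fall in intact RPE. DESeq2, which called 10.8% of all genes there, called *hsp70.1*. In the same libraries *hsp70.2* measured 249, 255 and 152 CPM with DMSO and 454, 1439 and 420 CPM with rapamycin. *hsp70.3* measured 293, 212 and 250 CPM against 413, 1269 and 451 CPM, and *hspa8b* 21.1, 76.4 and 43.1 CPM against 87.5, 383 and 118 CPM. For *hsp70.2*, *hsp70.3* and *hspa8b* the groups did not overlap, and neither edgeR nor DESeq2 called them. Of the 12 tested Hsp70 and Hsp110 genes 9 had a positive log2 fold change there (median 1.12). For 5 of the 12 all rapamycin libraries lay above all DMSO ones, as for 10.9% of all tested genes. The interaction was 4.03 on the log2 scale for *hsp70l* (SE 0.806, adjusted p = 0.0235), 4.86 for *hsp70.1* (SE 0.939, adjusted p = 0.021), 4.67 for *hsp70.2* (SE 0.995, adjusted p = 0.0288) and 3.40 for *dnajb1b* (SE 0.755, adjusted p = 0.0344).

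These 4 may share reads or are known to be induced together, and so are not taken as separate observations. In 12 fits without 1 library, *hsp70l* was called in 10, *hsp70.1* in 9 and *hsp70.2* and *dnajb1b* in 5. Without ablated rapamycin replicate 2, the library with the highest values, the interactions of *hsp70.1*, *hsp70.2*, *hsp70l* and *dnajb1b* were 3.87, 3.88, 3.36 and 2.55. With the replicate block *dnajb1b* was not called (adjusted p = 0.0634). Without both ablated libraries numbered 2 *hsp70.1* alone of the 7 was called (adjusted p = 0.0453), where 0.482% of all tested genes were.

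Negative interactions were called for 3 genes. *dnajb11* rose with rapamycin in intact RPE and went from 50.8, 73.9 and 54.1 CPM to 77.9, 94.8 and 91.9 CPM in ablated RPE (interaction -1.63, SE 0.301, adjusted p = 0.0177), in 12 of 12 fits without 1 library. *hspa12a* had an interaction of -3.66 (SE 0.715, adjusted p = 0.0219), in 10 of 12 such fits. *hspa4l*, an Hsp110 gene, measured 2.61, 6.39 and 8.93 CPM with DMSO and 38.4, 13.6 and 21.9 CPM with rapamycin in intact RPE, and 16.6, 17.3 and 7.12 CPM and 5.74, 5.29 and 4.55 CPM in ablated RPE (interaction -3.48, SE 0.735, adjusted p = 0.0282, and 0.0615 with the replicate block). The call of *hspa4l* was given by 5 of 12 fits without 1 library. The chaperonin rows had interactions between 0.04 and 0.66, none of them called. The count of 7 was 1 without intact rapamycin replicate 1, 2 without ablated DMSO replicate 2, 3 without ablated DMSO replicate 1, and 4 without ablated DMSO replicate 3 or intact DMSO replicate 1. In the other fits without 1 library it was 5 to 8. Over all tested genes the share called was 3.47%, and 1.37% without intact rapamycin replicate 1. That share was 1.26% without ablated DMSO replicate 2 and 1.83% without ablated DMSO replicate 1.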

How the data were processed

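The authors trimmed paired reads, aligned them to GRCz11 in CLC Genomics Workbench (version not given in the sources used here) and deposited a table per time point with the total count of reads on each gene and, beside it, TPM (length-scaled, each library to the same sum). Handling of multi-mapped reads and strand is not given in the sources used here, and 26 of the 94 genes overlap another gene. The tables also hold RPKM, a column named CPM and the authors' comparisons (fold changes, p-values, FDR p-values), none of them used here.

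Counts were scaled by TMM and tested with edgeR 4.0.16 in R 4.3.3 (glmQLFit robust, glmQLFTest), on the 12 libraries of a time point, or all 24 for the change of the ablation effect, after filterByExpr with a minimum count of 10. Each standard error is the log2 fold change divided by the square root of F. The p-values were adjusted over all genes tested. A floor of 3 counts per library was used. Amplified reads carry no molecular identifiers, so counting limits cover counting error only.

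In the labels, the raw names of same-numbered libraries of a time point carry one date, and what was done on it is not stated. Their deviations from group means correlated across genes with a mean r of 0.153 (-0.126 to 0.395) over 18 pairs at 2dpi and 0.062 (-0.0704 to 0.347) over 18 at 4dpi. Between other numbers the means were -0.0766 and -0.0311. Centring on the group means largely fixes these once the first are known, so they are no separate evidence. The replicate block is given beside results it changes. Alternatives were RLE scaling, no filter, DESeq2 1.42.0, the block, fits on the compared groups, the filters of the paper, single libraries left out, and both ablated 4dpi libraries numbered 2 left out, the last added after the data were seen. The scripts were tested on simulated data with a smaller spread between libraries than in these data. The biological coefficient of variation fitted here was 0.635 at 2dpi and 0.619 at 4dpi. That test therefore does not show how well changes are found at this spread.

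The genes meant to be shown by library were called genes with the smallest adjusted p (up to 3 per direction, comparison and class). The 2 most abundant of each class, named core chaperones and *cct* rows were also on that list. Not all of these were shown. Library values of *dnaja2a*, *dnajc1*, *dnajc8* and *dnajc5ga* are among those left out, and some *cct* rows are shown only in the figure. A few others (such as *hspa8b*, *dnajb1b* and *hspa4l*) were added after their values were seen. The genes, classes, partner lists and marker lists were chosen with earlier results of these data known. Gene names are those of the tables. The reference names the ID of *hspb11* as *hspb9l*. No gene or promoter sequence was used here.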

Additional observations from a re-analysis of the deposited data

Results flagged for a closer look

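Tests of a difference between group effects called 13 results. At 4dpi the effect of rapamycin differed between ablated and intact RPE for *hsp70.1* (4.86 on the log2 scale), *hsp70.2* (4.67), *hsp70l* (4.03), *dnajb1b* (3.40), *dnajb11* (-1.63), *hspa12a* (-3.66) and *hspa4l* (-3.48). The effect of ablation differed between 4dpi and 2dpi for *dnajb11* (2.19), *cct5* (-1.25), *cct8* (-1.27), *dnaja2a* (-1.10) and *dnaja2b* (-1.16). For *dnajc16* the fitted difference was 11.77 (SE 2.37, adjusted p = 0.0154, edgeR). It rests on 0 counts in all 3 ablated DMSO libraries at 2dpi and 8, 74 and 38 at 4dpi. The intact DMSO libraries had 20, 57 and 42 counts at 2dpi and 0, 5 and 3 at 4dpi. The size of the difference depends on the prior count, so it is no bound.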

How the results depend on the processing

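The 105 called results of single chaperone genes were refitted, and none reversed in the fits run; uncalled results and partner genes are not in this tally. With RLE scaling in place of TMM, 98 of 105 gene results kept their side of the threshold, with no filter on low counts 92, with DESeq2 104 and with the replicate block 96. On the compared groups alone 76 of 98 did. Leaving out 1 library kept 499 of 708, and leaving out both ablated 4dpi libraries numbered 2 kept 30 of 53.

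Counts of chaperone genes called moved most for rapamycin. In ablated RPE at 2dpi the count of 1 was 0 with RLE scaling, without the filter, on the compared groups alone and with the stricter filters, 3 with the replicate block and 9 with DESeq2, and 0 in each fit without 1 library. At 4dpi the count of 13 was 4 on the compared groups alone (none of them a chaperonin row), 12 with the replicate block and 19 with DESeq2. It was 0 without both ablated libraries numbered 2, and 4 to 16 without 1 library. In intact RPE the count of 1 at 2dpi was 0 with RLE scaling and without the filter, 10 with DESeq2 and 0 in each fit without 1 library. The count of 4 at 4dpi was 18 with DESeq2 and 1 to 6 without 1 library. The interaction at 4dpi, 7 genes, gave 1 without both ablated libraries numbered 2, 5 with the replicate block, 9 with DESeq2 and 1 to 8 without 1 library. The change of the ablation effect, 6 genes, gave 14 with DESeq2 and 3 to 8 without 1 library. For ablation, the counts of 40 and 33 were 36 and 34 with the replicate block, 43 and 41 with DESeq2, and 27 to 36 and 23 to 32 without 1 library. The share of all genes called shifted too. For rapamycin in ablated RPE at 2dpi it was 1.35% with the replicate block and 4.61% with DESeq2, against 0.547% in the main fit. In intact RPE it was 1.9% with DESeq2 against 0.0855% at 2dpi and 9.49% against 2.61% at 4dpi. For the change of the ablation effect it was 8.65% with DESeq2 against 2.72%. For rapamycin in ablated RPE at 4dpi it was 1.44% on the compared groups alone and 10.8% with DESeq2, against 3.51%. For the interaction at 4dpi it was 0.482% without both ablated libraries numbered 2, 2.85% with the replicate block and 10.5% with DESeq2, against 3.47%. Without 1 library the share for this interaction was 1.26% to 3.38%. For ablation DESeq2 gave 29.4% at 2dpi and 36.4% at 4dpi, against 25.2% and 29.8%. With the replicate block the ablation shares were 26.1% and 29.3%. Without 1 library they were 17.5% to 20.3% at 2dpi and 18.9% to 26.2% at 4dpi. The causes of these shifts were not tested. With 3 libraries a group, small changes of variable genes are not detectable at this depth of replication.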
